A study of Sus scrofa with 11 samples.

Results

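The 10 genes described here encode the contractile apparatus of smooth muscle cells and myofibroblasts: the actins ACTA2 and ACTG2, the myosin chains MYH11 and MYL9, the tropomyosins TPM1 and TPM2, the actin-binding proteins TAGLN, CNN1 and LMOD1, and the intermediate filament protein DES. They were taken by symbol from the 30376 genes of the expression table, and all 10 were present. RNA was sequenced from full-thickness wounds on the back of female Yucatan minipigs, a small breed of pig, excised at day 10 after wounding. The diabetic group comprised 7 wounds of 1 minipig given streptozotocin, a toxin of the insulin-producing beta cell, then kept on insulin that was stopped before wounding, and the non-diabetic group comprised 4 wounds of 1 minipig not made diabetic and wounded by the same procedure. The labels give no age, and the study's methods give an age at streptozotocin infusion for the diabetic minipig. Each library came from 1 wound, and replicates of a group are wounds of the same animal. The effect of diabetes and the difference between these 2 animals cannot be told apart, and every p-value below measures a difference against the spread between wounds.

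In healing skin, fibroblasts that take on smooth muscle alpha-actin become myofibroblasts, which assemble stress fibres and pull the wound edges together. The same genes are used permanently by the smooth muscle cells of arteries, veins and the hair erector muscles, and partly by pericytes, the cells that wrap capillaries. ACTA2, TAGLN, CNN1, MYL9 and the tropomyosins are known from both cell types, whereas MYH11, DES and LMOD1 are markers of mature smooth muscle. Serum response factor (SRF) drives many of these genes with the cofactors myocardin and MRTF, by binding a short DNA element, the CArG box. In a bulk wound sample, fewer cells of a type and less RNA per cell cannot be told apart.

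The promoters of ACTA2 and MYL9 are shown because they carry this element or a form close to it. In RefSeq, build Sscrofa11.1, the 250 bases before the annotated start lie at chr14:100886733-100886982 on the minus strand for ACTA2 and at chr17:39787915-39788164 on the plus strand for MYL9. Capitals mark a CArG box in MYL9 and CArG-like boxes in ACTA2, and each sequence reads 5′ to 3′ toward the gene.
ACTA2: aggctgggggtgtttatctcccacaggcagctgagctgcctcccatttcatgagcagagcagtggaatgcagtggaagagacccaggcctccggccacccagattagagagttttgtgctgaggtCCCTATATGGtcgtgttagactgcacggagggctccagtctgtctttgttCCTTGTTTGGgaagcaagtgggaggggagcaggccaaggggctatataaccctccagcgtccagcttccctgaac
MYL9: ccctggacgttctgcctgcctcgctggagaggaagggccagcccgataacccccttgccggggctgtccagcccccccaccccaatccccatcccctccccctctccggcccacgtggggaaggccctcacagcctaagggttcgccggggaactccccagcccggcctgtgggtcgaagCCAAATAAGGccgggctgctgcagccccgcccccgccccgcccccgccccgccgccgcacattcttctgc

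A CArG box is CC and GG around a core of 6 bases that are all A or T, and a CArG-like box, a search added after the result of the strict search was seen, has exactly 1 G or C in the core, so the classes do not overlap. Each pattern reads the same on both strands. MYL9 held the CArG box CCAAATAAGG, which begins 70 bases before the start. ACTA2 held the CArG-like boxes CCCTATATGG at 125 bases and CCTTGTTTGG at 75 bases, and ACTG2 held CCATTCTTGG at 148 bases. The windows of MYH11, CNN1, DES, TPM1, TPM2 and LMOD1 held neither pattern within these 250 bases. Of 20656 windows of the same length before protein-coding genes, 263 (1.27%) held a CArG box and 6 (0.029%) more than 1, while 1177 (5.7%) held a CArG-like box and 92 (0.445%) more than 1. These matches describe the sequence and show no binding in these wounds.

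Levels are given in FPKM, the fragments mapped to a gene scaled to its length and to a library divisor set by the authors. The length is the annotated value of each gene, 1478 bases for TAGLN and 5985 for TPM1. The order of genes below depends on these lengths and is not an order of reads. The median over the 11 wounds was highest for TAGLN, at 401 FPKM, followed by ACTA2 at 344, TPM1 at 110.1, TPM2 at 93.6, MYL9 at 63.0, CNN1 at 17.1, MYH11 at 13.6, ACTG2 at 13.2, DES at 6.93 and LMOD1 at 5.04. The step from ACTA2 down to TPM1, that from TPM2 to MYL9 and that from MYL9 to CNN1 held in 11 of 11 wounds. Neighbours whose order was not stable between wounds were CNN1 and MYH11, with CNN1 higher in 8 of 11, and MYH11 and ACTG2, with MYH11 higher in 7 of 11, and the remaining steps held in 9 or 10 of 11. Libraries held 28314785 to 40168372 reads on genes, and each member had 294 to 38550 reads in each wound, so counting error was small beside the spread between wounds.

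**Figure D1:**
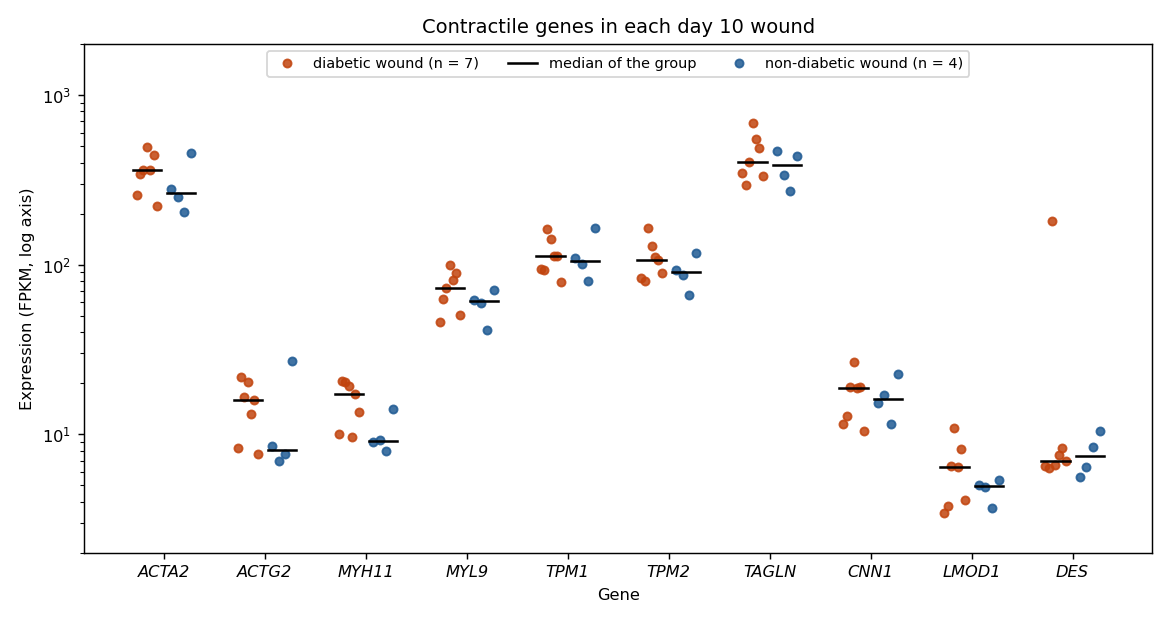
FPKM (log axis) of the 10 contractile genes, with 1 point per wound in orange for diabetic and blue for non-diabetic wounds and a bar at the median of each group. The point ranges of the groups overlap for every gene, and the DES point at 181 FPKM is diabetic replicate 3.

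None of the 10 contractile genes was called different between diabetic and non-diabetic wounds. A call required an adjusted p under 0.05 and a log2 fold change over 0.5 in either direction in limma, a linear model fitted to log2(FPKM + 0.5) across all 13956 genes that passed a filter on low values, and it called 419 of those genes (3.00%), of which 188 (1.35%) were higher and 231 (1.66%) lower in the diabetic group. All 10 members passed the filter. The groups did not overlap for 789 of the genes tested (5.65%) but overlapped for every member. The log2 fold change, diabetic minus non-diabetic, was positive in 9 of 10 members against 52.3% of all genes tested, with a median of 0.27 against 0.01. The median fell to 0.12 without non-diabetic replicate 3, to 0.14 with quantile normalization and to 0.15 among the wounds whose library name carries the letter L, and 7 of 10 members were positive without diabetic replicate 3 and 6 of 10 among L wounds. Members varied together from wound to wound, as described below, so the directions of the 10 are not separate observations. An unadjusted limma p under 0.05 was reached by 1 of 10 members, MYH11, against 2567 of all genes tested (18.4%). None of the members was called under any of 27 alternative settings either, including voom on the recovered whole reads. The share of all genes called in those settings ran from 0.0645%, among L wounds, to 10.1%, among R wounds.

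**Figure D2:**
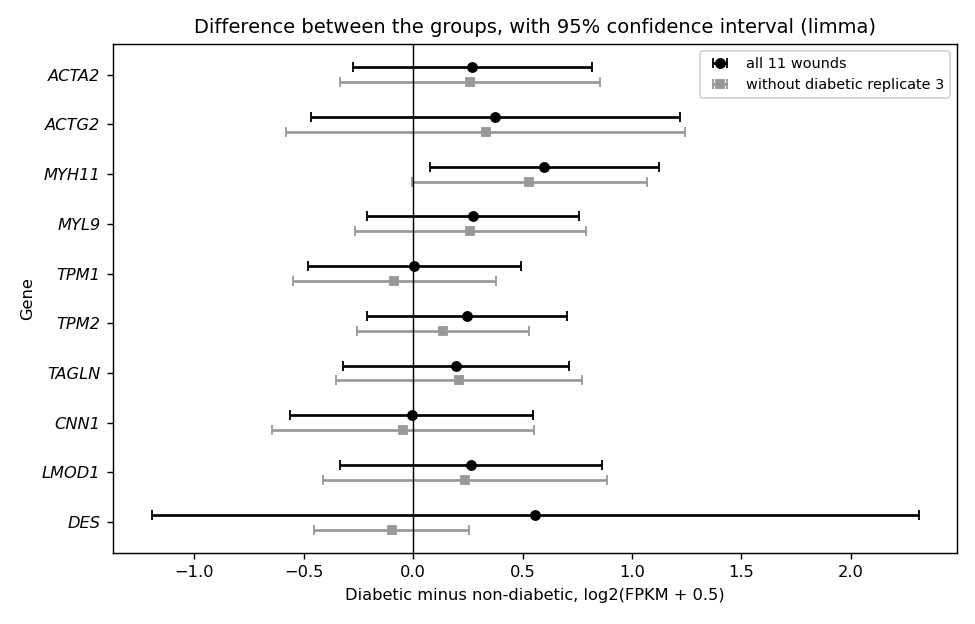
Difference between diabetic and non-diabetic wounds in log2(FPKM + 0.5) for each member, with the 95% confidence interval from limma, for all 11 wounds (black circles) and without diabetic replicate 3 (grey squares). Of the black intervals, that of MYH11 lies above 0, at 0.08 to 1.12, and that of DES is the widest, at -1.20 to 2.31.

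ACTA2 (chromosome 14, 100868145 to 100886732, minus strand) encodes smooth muscle alpha-actin, the defining protein of the myofibroblast. Its level was 221 FPKM in the lowest diabetic wound, 361 at the median and 496 in the highest, and 278, 252, 205 and 454 FPKM in non-diabetic replicates 1 to 4. Non-diabetic replicate 4 lay among the highest diabetic wounds and the other 3 non-diabetic wounds lay among the lowest. The diabetic mean of 355 ± 96.0 FPKM (SD, n = 7) and the non-diabetic mean of 297 ± 109 FPKM (SD, n = 4) gave a log2 fold change of 0.27 (95% confidence interval -0.28 to 0.82, adjusted p = 0.621). ACTA2 was thus not distinguishable between the groups, and the interval spans 0.826-fold to 1.76-fold.

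ACTG2 (chromosome 3, 69097366 to 69121542, minus strand) encodes gamma smooth muscle actin, the actin typical of visceral smooth muscle. Diabetic wounds ranged from 7.70 to 21.6 FPKM with a median of 15.8, and non-diabetic replicates 1 to 4 had 8.51, 7.00, 7.70 and 26.8 FPKM. The highest of all 11 values was therefore a non-diabetic wound, whose 3 companions lay at the level of the lowest diabetic wounds. The log2 fold change was 0.37 (-0.47 to 1.22, adjusted p = 0.664), and it was 0.81 without non-diabetic replicate 4, where the unadjusted p was 0.0244 and the adjusted p 0.233. Coding regions of the actin genes are similar in sequence. How reads matching several of them were counted is not given in the sources used here, so their separate levels are uncertain to that extent.

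MYH11 (chromosome 3, 7002667 to 7143093, plus strand) encodes smooth muscle myosin heavy chain, the motor of mature smooth muscle. Diabetic replicates 1 to 7 had 10.0, 20.5, 20.3, 19.2, 9.69, 17.2 and 13.6 FPKM, and non-diabetic replicates 1 to 4 had 9.03, 9.27, 7.92 and 14 FPKM. All 7 diabetic wounds lay above the non-diabetic median and 4 of 7 lay above the highest non-diabetic wound, while diabetic replicates 1, 5 and 7 lay within the non-diabetic range. The mean was 15.8 ± 4.68 FPKM (SD, n = 7) against 10.1 ± 2.70 FPKM (SD, n = 4), a log2 fold change of 0.60 (0.08 to 1.12), or 1.51-fold. The unadjusted limma p was 0.0285 and the two-sided exact permutation p over all 330 splits of the wounds was 0.0424, but the adjusted p over all genes was 0.205, so the difference did not pass the correction. Without diabetic replicate 3 the log2 fold change was 0.53 with an unadjusted p of 0.0526.

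MYL9 (chromosome 17, 39788165 to 39795240, plus strand) encodes the regulatory light chain whose phosphorylation starts smooth muscle and myofibroblast contraction. Diabetic wounds ranged from 46.2 to 98.9 FPKM with a median of 72.8, and the 4 non-diabetic wounds had 62.1, 59.3, 41.4 and 70.7 FPKM. The 3 highest wounds, diabetic replicates 4, 6 and 5, were diabetic, but so were 2 of the 3 lowest. The log2 fold change was 0.27 (-0.21 to 0.76, adjusted p = 0.564).

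The tropomyosins wind along the actin filament and stabilise it. TPM1 (chromosome 1, 108986981 to 109016090, minus strand) ranged from 78.9 to 162 FPKM in diabetic wounds with a median of 112, and had 110.1, 101, 79.6 and 165 FPKM in non-diabetic wounds. Its lowest and highest values were nearly the same in both groups, and the log2 fold change was 0.01 (-0.48 to 0.49, adjusted p = 0.992). TPM2 (chromosome 1, 236402249 to 236410390, minus strand) ranged from 80.2 to 166 FPKM in diabetic wounds with a median of 106, and had 93.6, 86.3, 66.3 and 118 FPKM in non-diabetic wounds. The highest TPM2 value was that of diabetic replicate 3, and the log2 fold change was 0.25 (-0.21 to 0.70, adjusted p = 0.586).

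TAGLN and CNN1 belong to the calponin family of actin-binding proteins. TAGLN (chromosome 9, 44561756 to 44567385, plus strand), also called SM22, ranged from 295 to 679.7 FPKM in diabetic wounds with a median of 401, and had 468, 336, 272 and 439 FPKM in non-diabetic wounds. Diabetic replicate 4 stood highest, and 3 of 7 diabetic wounds lay above all non-diabetic wounds. The log2 fold change was 0.20 (-0.32 to 0.71, adjusted p = 0.717). CNN1 (chromosome 2, 70183370 to 70190756, plus strand), calponin 1, ranged from 10.5 to 26.7 FPKM in diabetic wounds with a median of 18.8, and had 15.4, 17.1, 11.6 and 22.5 FPKM in non-diabetic wounds. Both ends of the range were diabetic wounds, and the means of 16.9 ± 5.73 (SD, n = 7) and 16.6 ± 4.55 FPKM (SD, n = 4) gave a log2 fold change of -0.01 (-0.56 to 0.55, adjusted p = 0.992).

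LMOD1 (chromosome 10, 24165293 to 24194823, minus strand) encodes leiomodin 1, which starts new actin filaments in smooth muscle. It ranged from 3.44 to 10.8 FPKM in diabetic wounds with a median of 6.41, and had 5.04, 4.90, 3.68 and 5.34 FPKM in non-diabetic wounds. Diabetic wounds took both the highest and the lowest places, and the log2 fold change was 0.26 (-0.34 to 0.86, adjusted p = 0.666).

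DES (chromosome 15, 121428539 to 121435426, plus strand) encodes desmin, the intermediate filament protein of smooth, skeletal and cardiac muscle. Diabetic replicates 1 to 7 had 6.45, 6.34, 181, 6.54, 7.52, 8.34 and 6.93 FPKM, and non-diabetic replicates 1 to 4 had 5.61, 6.41, 8.45 and 10.4 FPKM. Diabetic replicate 3 stood 26.9 times above the median of the other 10 wounds and 17.3 times above the highest of them, while the other 6 diabetic wounds averaged 7.02 ± 0.776 FPKM (SD, n = 6), inside the non-diabetic range of 5.61 to 10.4. The log2 fold change over all wounds was 0.56 (-1.20 to 2.31, adjusted p = 0.771), and without diabetic replicate 3 it was -0.10 (-0.45 to 0.26, adjusted p = 0.827). The positive direction of DES therefore rested on that wound.

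The same wound carried skeletal muscle transcripts. Of 19 skeletal muscle genes matched in the table, 19 were highest in diabetic replicate 3, 18 by more than 10 times over the highest other wound, and 13 were at or under 1 FPKM in every other wound. Their summed level was 2978 FPKM there and 4.97 to 14.5 FPKM in the other 10 wounds. ACTA1, skeletal muscle alpha-actin, was at 957 FPKM, MYL1, a skeletal myosin light chain, at 483, CKM, the muscle creatine kinase, at 168 and MYH1, a fast skeletal myosin, at 138, and ACTA1, CKM and MYH1 did not pass 0.110 FPKM in any other wound. Of the other contractile genes in diabetic replicate 3, TPM2 was 1.29 times the highest other wound, TPM1 and MYH11 each ranked the second highest of 11, and ACTA2, TAGLN, CNN1, ACTG2, MYL9 and LMOD1 ranked the third to the sixth. TPM1 and TPM2 are made in skeletal muscle too, and DES is abundant there. Without this wound the log2 fold change of TPM2 was 0.14 and that of TPM1 was -0.09, and what part the skeletal muscle had in the other members was not tested.

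**Figure D3:**
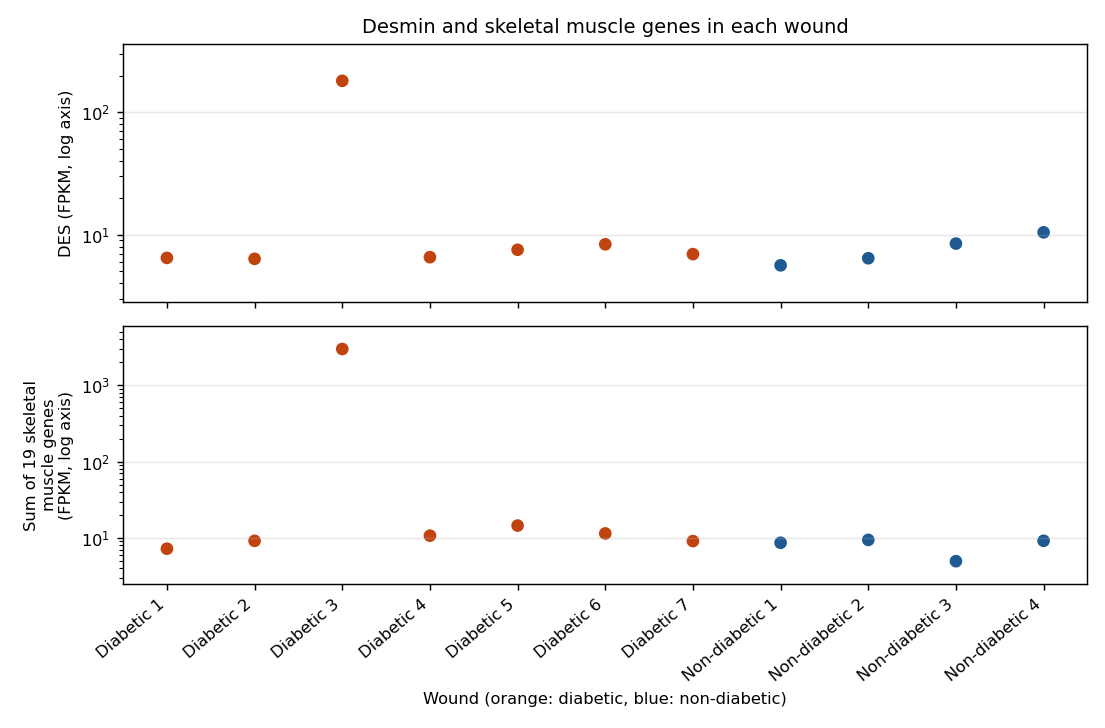
DES (upper panel) and the summed level of the 19 matched skeletal muscle genes (lower panel) in FPKM on log axes, with 1 point per wound. Diabetic replicate 3 stands at 181 and 2978 FPKM, and the other 10 wounds lie at 5.61 to 10.4 and 4.97 to 14.5 FPKM.

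The contractile genes varied together from wound to wound. Among the 9 members other than DES, the 36 pairwise Pearson correlations of log2(FPKM + 0.5) ran from 0.26 to 0.92 with a median of 0.73, and 31 of 36 exceeded 0.5. These are descriptions over 11 wounds of 2 animals, in which pairs share library, depth and tissue content. The closest pairs were MYL9 with LMOD1 (r = 0.92), ACTA2 with MYL9 (r = 0.91), ACTA2 with ACTG2 (r = 0.89) and TPM1 with TPM2 (r = 0.89). MYH11 was the loosest member of the 9, with a median r of 0.48 to the other members, a lowest r of 0.26 with TAGLN and a highest of 0.76 with ACTG2. DES correlated with TPM2 at 0.68 over all wounds, and without diabetic replicate 3 its correlations with the other members lay between 0.02 and 0.43.

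The pattern can be followed wound by wound. Diabetic replicate 4 was highest for 5 members, ACTA2, TAGLN, CNN1, MYL9 and LMOD1, and among the 3 highest wounds for 9 of 10. Non-diabetic replicate 4 was among the 3 highest for 6 members and highest for ACTG2 and TPM1. At the other end, non-diabetic replicate 3 was among the 3 lowest for 9 members, and diabetic replicate 7 for 6. Each group thus held wounds at both ends of the contractile range. The share of all reads on genes taken by the 10 members was 0.156 to 0.323% in diabetic and 0.162 to 0.309% in non-diabetic wounds. The highest diabetic share was that of diabetic replicate 3, the wound with skeletal muscle transcripts, and the next was 0.304% in diabetic replicate 4.

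**Figure D4:**
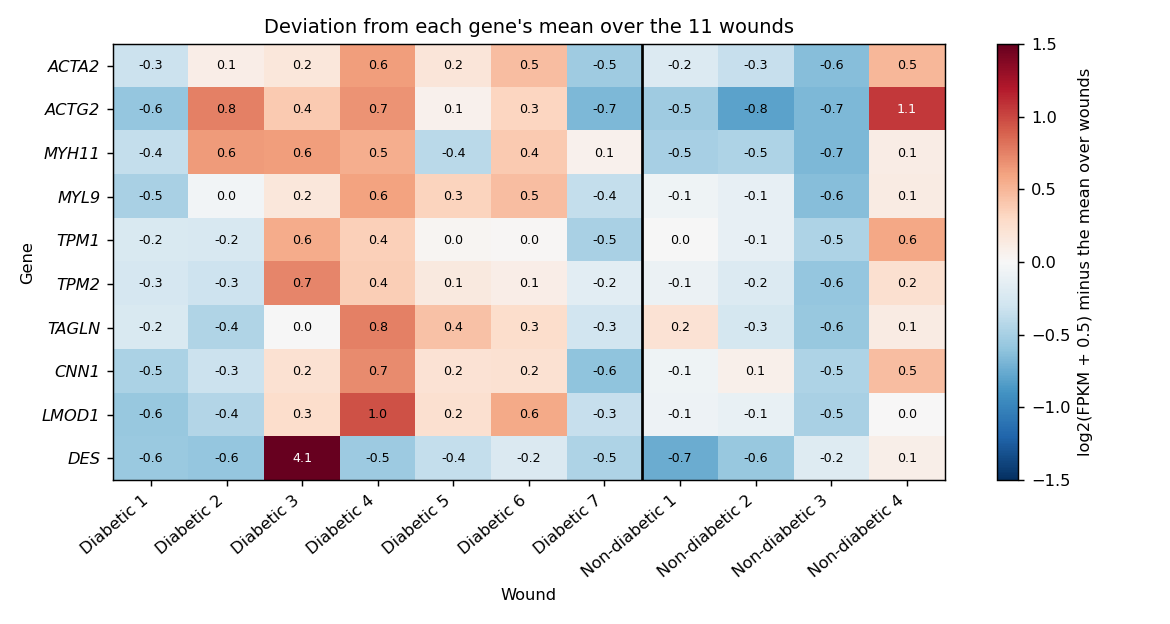
Deviation of log2(FPKM + 0.5) from each gene's mean over the 11 wounds, with genes as rows and wounds as columns, red above and blue below the mean; the colour scale ends at 1.5 and the vertical line parts the groups. Diabetic replicate 4 is above the mean for 9 of 10 genes and non-diabetic replicate 3 is among the 3 lowest wounds for 9 of 10.

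Diabetic replicate 4 and non-diabetic replicate 1 stood apart from the other 9 wounds on the principal component that held 44.5% of the variance over all genes tested. Their summed level of 10 keratinocyte genes was 47.4 and 285 FPKM, against 1475 to 6492 FPKM in the other wounds. Diabetic replicate 4 was the high wound for 5 contractile genes, whereas non-diabetic replicate 1 was among the 3 highest for 0 members and among the 3 lowest for 2. Without both wounds, 0 members were called, against 212 of all genes tested (1.52%). In that setting the log2 fold change of MYH11 was 0.50 with an exact permutation p of 0.143, and that of TPM1 was -0.05. What part the content of epidermis had in the spread of the contractile genes was not tested.

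Over the wounds, the genes most like the mean of the 10 members were NRIP2 (r = 0.88), a nuclear receptor-interacting protein, C13H3orf14 (r = 0.87), LOC110261322 (r = 0.87), MAP3K7CL (r = 0.86), LOC110258060 (r = 0.85) and MAD2L2 (r = 0.84), chosen as the highest of all other genes tested over 11 wounds. LOC102158901, C4H8orf37, RAPSN and AARS2 followed at 0.83 to 0.82. Some lay near the 0.5 FPKM of the filter. LOC110261322 averaged 0.77 FPKM in diabetic and 0.59 in non-diabetic wounds, LOC102158901 0.72 and 0.59, and RAPSN 0.65 and 0.46. Spearman's rho for NRIP2 was 0.92, and r was 0.80 without diabetic replicates 3 and 4, the wounds farthest from the median of the contractile mean. Without these 2 wounds r was 0.54 for RAPSN, 0.64 for AARS2 and 0.65 for MAP3K7CL, and 0.72 to 0.86 for the others named so far. After the group means were subtracted, NRIP2 (0.94), KLF15 (0.93), LOC106506455 (0.89), MAD2L2 (0.87) and C13H3orf14 (0.86) led. Before that subtraction, Spearman's rho over the 11 wounds was 0.32 for KLF15 and 0.23 for LOC106506455. Their r without diabetic replicates 3 and 4, also before it, was 0.33 and 0.38. KLF15 averaged 0.66 FPKM in diabetic and 1.19 in non-diabetic wounds, and LOC106506455 0.43 and 1.37. In the limma fit LOC106506455 was itself called lower in the diabetic group (log2 fold change -1.01, adjusted p = 0.0373). With DES left out of the mean, C4H8orf37 (r = 0.90), TTC12 (0.88), C13H3orf14 (0.88), LOC110261322 (0.87) and IFN-DELTA-9 (0.86) led, and NRIP2 and MAP3K7CL were not among these 5.

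Among the actins, tropomyosins and myosin heavy chains, no member was the main form in any wound. The shares are of whole genes, rest on the same gene lengths and do not separate splice forms. ACTA2 made up 12.6 to 21.7% of the summed FPKM of 5 actins in diabetic and 13.9 to 25.3% in non-diabetic wounds, with ACTG1, the cytoplasmic gamma-actin, as the main form in every wound except diabetic replicate 3. In that wound ACTA1 held 35.1% and ACTG1 34.2%. MYH11 made up 3.26 to 8.70% of MYH11, MYH9 and MYH10 in diabetic and 3.19 to 5.53% in non-diabetic wounds, and MYH9, a non-muscle myosin, 67.5 to 76.0% over all wounds. TPM4 was the main tropomyosin at 58.9 to 75.7%, with TPM1 at 10.98 to 18.3% and TPM2 at 9.15 to 18.8%. The share of MYH10, the other non-muscle myosin, was 18.8 to 23.2% in diabetic and 24.9 to 29.2% in non-diabetic wounds, ranges that did not overlap. It was picked out after the values were seen, and the shares of all other genes of these families overlapped. Among the levels of all genes tested, 5.65% did not overlap. In the calponin and transgelin family the order was different: TAGLN was the main form at 40.01 to 59.8% of TAGLN, TAGLN2, CNN1, CNN2 and CNN3, whereas CNN1 held 1.35 to 2.49%. The level of MYH10 itself was 55.7 ± 7.75 FPKM (SD, n = 7) against 72.0 ± 5.48 FPKM (SD, n = 4), a log2 fold change of -0.38 with an adjusted p of 0.0958, which did not pass. These levels overlapped, reaching 67.5 FPKM in diabetic wounds and starting at 66.1 FPKM in non-diabetic wounds.

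**Figure D5:**
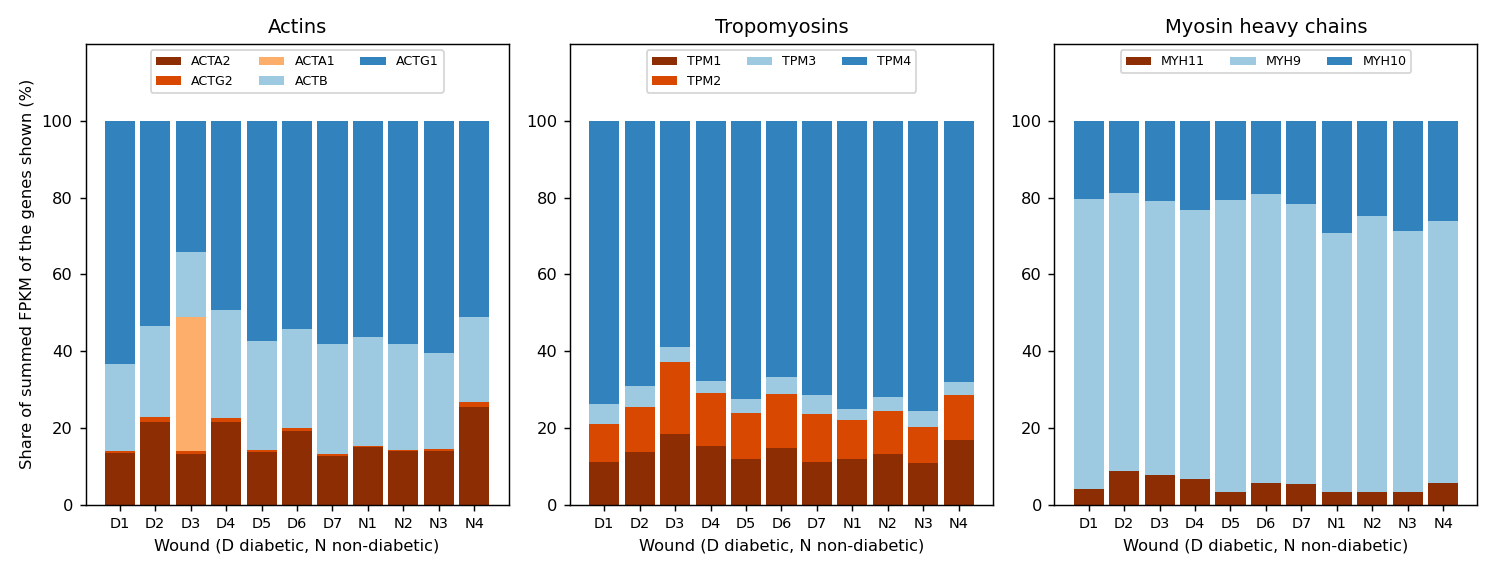
Stacked bars of the share (%) of each actin, tropomyosin and myosin heavy chain in the summed FPKM of the genes shown, for diabetic (D1 to D7) and non-diabetic (N1 to N4) wounds. The member genes lie at the base of each bar, and ACTA1 appears as a visible layer, 35.1%, in diabetic replicate 3.

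The rest of the contractile machinery was examined with a list of 40 genes, of which 38 were matched and 37 tested. The limma fit called 0 of them higher and 2 lower in the diabetic group, against 1.35% and 1.66% of all genes tested. An unadjusted limma p under 0.05 was reached by 8 of 37, against 18.4% of all genes tested. A positive log2 fold change was found for 22 of 37, against 52.3%, with a median of 0.05 against 0.01 for all genes tested. The genes called lower were CSRP2, a LIM-domain protein of smooth muscle, and KCNMB1, the beta subunit of the calcium-activated potassium channel of smooth muscle. CSRP2 ranged from 9.62 to 17.7 FPKM with a median of 12.8 in diabetic wounds and from 17.4 to 25.8 FPKM with a median of 21.9 in non-diabetic wounds, so that the groups overlapped by a narrow margin. Its log2 fold change was -0.70 ± 0.17 (SE, adjusted p = 0.0415). KCNMB1 was near the detection limit with 12 to 119 reads per wound, at 0.254 ± 0.161 FPKM (SD, n = 7) against 0.697 ± 0.124 FPKM (SD, n = 4), a log2 fold change of -0.69 ± 0.16 (SE, adjusted p = 0.0396).

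Both calls were fragile. CSRP2 lost its call when any 1 of 8 wounds was left out, these being diabetic replicates 3, 4, 6 and 7 and all 4 non-diabetic wounds, with an adjusted p of up to 0.126. KCNMB1 lost it for any 1 of 9 wounds, diabetic replicates 2, 3, 5, 6 and 7 and all 4 non-diabetic wounds, with an adjusted p of up to 0.136. CALD1, caldesmon, which binds actin and myosin and restrains contraction, ranged from 95.6 to 124 FPKM in diabetic and from 134 to 177 FPKM in non-diabetic wounds without overlap, at a log2 fold change of -0.44 ± 0.10 (SE, adjusted p = 0.0359), under the fold threshold for a call. Groups without overlap were found for 5.65% of all genes tested. MYLK, the kinase that phosphorylates MYL9, had a log2 fold change of -0.52 (adjusted p = 0.118), and CASQ2, a calcium store protein, of 0.76 (adjusted p = 0.160). CASQ2 was highest in diabetic replicate 3, the wound with skeletal muscle transcripts, at 3.97 FPKM against 2.87 FPKM in the highest other wound. CALD1, MYLK, CASQ2 and MYH10 were named after their values were seen.

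The regulators of the programme did not pass the test. The log2 fold change was 0.19 for SRF (adjusted p = 0.657), 0.13 for MRTFA (adjusted p = 0.653), -0.15 for MRTFB (adjusted p = 0.582) and 0.04 for MYOCD, myocardin (adjusted p = 0.957), at 0.404 ± 0.194 FPKM (SD, n = 7) against 0.423 ± 0.401 FPKM (SD, n = 4). These 4 were also named after their values were seen. The most abundant genes of the list, ACTG1 at 1127 ± 220.5 against 976 ± 89.9 FPKM and TPM4 at 562 ± 80.3 against 617 ± 76.8 FPKM, had adjusted p of 0.550 and 0.614.

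Markers of the cell types that carry these genes were set beside them. Counts in this paragraph and the next stand against 1.35% of all genes tested called higher and 1.66% called lower. Of all genes tested, 18.4% reached an unadjusted limma p under 0.05, and 52.3% had a positive log2 fold change. Among 11 smooth muscle and pericyte genes tested, 0 were called higher and 2 lower, KCNMB1 and RGS5, a regulator of G-protein signalling and a pericyte marker. RGS5 ranged from 28.9 to 54.1 FPKM with a median of 37.1 in diabetic and from 50.1 to 83.6 FPKM with a median of 74.1 in non-diabetic wounds, and its log2 fold change was -0.87 ± 0.20 (SE, adjusted p = 0.0350). That call was lost when any 1 of 8 wounds was left out, diabetic replicates 3, 4, 5, 6 and 7 and non-diabetic replicates 1, 3 and 4, with an adjusted p of up to 0.130. The other defining pericyte markers, NOTCH3 (log2 fold change 0.27, adjusted p = 0.433) and PDGFRB (0.21, adjusted p = 0.708), did not pass. Over the list 4 of 11 genes had an unadjusted p under 0.05 and 6 of 11 a positive log2 fold change. Values ran from -0.87 for RGS5 to 0.76 for CASQ2, which was highest in diabetic replicate 3, with a median of 0.04. Further pericyte markers lay on both sides without passing, with HIGD1B at 0.57, CSPG4 at 0.35, MCAM at -0.13, ABCC9 at -0.19 and KCNJ8 at -0.30. NOTCH3 and these 5 were named after their values were seen. The summed level of the list was 150 to 251 FPKM in diabetic and 190 to 243 FPKM in non-diabetic wounds.

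Of 14 fibroblast and myofibroblast genes tested, 0 were called in limma, 2 had an unadjusted p under 0.05 and 4 had a positive log2 fold change, with a median of -0.21, and the most abundant were COL1A1 (-0.13, adjusted p = 0.906) and COL3A1 (-0.26, adjusted p = 0.674). The 2 genes with an unadjusted p under 0.05, named after their values were seen, mark activated fibroblasts: POSTN, periostin, at 490.2 ± 228 FPKM (SD, n = 7) against 1040.3 ± 236 FPKM (SD, n = 4), whose log2 fold change was -1.18 (adjusted p = 0.0698), and LRRC15, whose log2 fold change was -1.27 (adjusted p = 0.152). Neither passed the correction. The summed level of that list was 20419 to 55593 FPKM in diabetic and 36610 to 68715 FPKM in non-diabetic wounds. Of 10 endothelial genes 0 were called and 0 had an unadjusted p under 0.05, PECAM1 and CLDN5 being the most abundant, with sums of 267 to 337 and 259 to 327 FPKM. Of 10 leukocyte genes 3 were called higher, CD79A (1.74), ITGAM (1.22) and CD14 (0.76), and LAPTM5 and CD68, the most abundant, did not pass. The calls of CD79A and ITGAM were lost for 0 of 11 wounds left out in turn, whereas that of CD14 was lost for 9 of 11, all except diabetic replicates 1 and 2, with an adjusted p of up to 0.136. Of 10 keratinocyte genes 1 was called higher, KRT15 (2.50), a keratin of basal cells, with KRT5 and KRT1 the most abundant. That call was lost for 8 of 11 wounds left out in turn, all except diabetic replicates 3 and 4 and non-diabetic replicate 3, with an adjusted p of up to 0.114. Of 7 adipocyte genes 1 was called lower, LEP (-1.41), the leptin gene, with FABP4 and ADIPOQ the most abundant. The log2 fold changes of that list ran from -1.41 to 0.92 with a median of -0.97. A positive value was found for 1 of 7 and an unadjusted limma p under 0.05 for 2. The summed level of the adipocyte list was 281 to 876 FPKM in diabetic and 292 to 498 FPKM in non-diabetic wounds. Of 7 skeletal muscle genes tested 0 were called and 0 had an unadjusted p under 0.05, at a median of 1.25 with diabetic replicate 3 included. The part of these cell types in the levels of the contractile genes was not tested.

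The library names carry the letter L or R, 3 and 4 of the diabetic and 2 and 2 of the non-diabetic wounds, and the comparison was repeated within each letter. MYH11 was positive within both, at 0.78 among L wounds (unadjusted p = 0.0609) and 0.44 among R wounds (unadjusted p = 0.230), and so were ACTA2 at 0.26 and 0.25 and TPM2 at 0.20 and 0.28. TAGLN was -0.20 among L and 0.52 among R wounds, MYL9 -0.03 and 0.52, LMOD1 -0.15 and 0.60, and CNN1 -0.20 and 0.14. ACTG2 turned the other way, from 0.86 among L to -0.10 among R wounds, as did TPM1, from 0.09 to -0.07. DES was 1.66 among L wounds, which include diabetic replicate 3, and -0.34 among R wounds (unadjusted p = 0.0463, adjusted p = 0.145). No member was called within either letter. Of all genes tested, 9 (0.0645%) were called among L wounds and 1415 (10.1%) among R wounds. Whether the letters differ was not tested.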

How the data were processed

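Polyadenylated RNA of 11 wounds, 7 diabetic and 4 non-diabetic, was sequenced by the authors from directional libraries. Per the submitters' processing notes and the study's methods, reads were trimmed with fastp, mapped to Sscrofa11.1 with HISAT2 2.2.1, assembled with StringTie 2.2.3 and counted with featureCounts 2.0.6. The deposited FPKM values were derived by the authors from these counts, and their formula, the annotation release, and the treatment of strand and of reads with several matches are not given in the sources used here. Multiplying by gene length gave whole reads, within 0.05 reads, for 100.0% of values, with 28314785 to 40168372 reads on genes per library. On a gene of 2 kb, 1 read equalled 0.0112 to 0.0194 FPKM. The library divisor was 0.854 to 1.18 times the reads on genes. Median-of-ratios factors computed from the FPKM values were 1.006 to 1.015, so that alternative scaling nearly repeats the main fit. All per-sample columns were used.

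The filter kept the 13956 genes that reached 0.5 FPKM in 4 or more libraries. On log2(FPKM + 0.5), limma 3.58.1 in R 4.3.3 was fitted to them (lmFit, then eBayes with its trend option), p-values were adjusted over all of them by Benjamini-Hochberg, and a gene was called when the adjusted p was below 0.05 and the log2 fold change exceeded 0.5 in size. The pseudocount makes changes of low genes smaller. Each member also had an exact permutation test, two-sided, over 330 splits (SciPy 1.17.1), whose smallest possible p is 0.00303. In simulated data, the limma test recovered 66 of 100 genes changed by 1 and 92 of 100 changed by 2 on the log2 scale, with 5 false calls. The simulation drew the spread independently for each gene and wound, and changed genes with a mean of at least 1 FPKM. It held no change smaller than 1 and no structure shared between genes, so its false calls do not give the error in these wounds. The members and the lists were chosen with earlier results of these data known. Named are all members, called genes and the 2 most abundant genes of each list, and the genes most like the mean of the members. MRTFA, MRTFB and CCN2 were matched through the older symbols MKL1, MKL2 and CTGF; MYL12A, MYL12B, COX4I2, MB, KRT14 and KRT17 were not matched and are not analysed here. KCNMB1, CASQ2 and MYOCD stand in 2 lists. Promoters came from the RefSeq genome of Sscrofa11.1, in which all 30335 identifiers of the table had the same start; the window of TAGLN is not reported here. Alternatives changed the pseudocount, filter, scaling, spread estimate, library weights, replicate block, library letter and set of wounds, and voom was run on the recovered reads.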

Additional observations from a re-analysis of the deposited data

Results flagged for a closer look

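Of 20 groups of values examined, 10 genes in each of the 2 groups, 2 held a wound far from its companions, where chance marks about 1 group in 20. DES in diabetic replicate 3, at 181 FPKM, lay apart from the other diabetic wounds by 0.922 of the group's whole range on the log2(FPKM + 0.5) scale, over Dixon's limit for 7 samples. ACTG2 in non-diabetic replicate 4, at 26.8 FPKM, lay apart from the other non-diabetic wounds by 0.858 of the range on that scale, over Dixon's limit for 4 samples.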

How the results depend on the processing

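No member was called under any of the 27 alternatives, and the log2 fold changes of ACTA2 (0.11 to 0.50), MYH11 (0.44 to 0.78) and TPM2 (0.10 to 0.38) kept their sign in all of them, with an unadjusted p under 0.05 for MYH11 in 18 of 27. Without the 2 wounds that stand apart, the exact permutation p was 0.143 for MYH11 and 0.857 for TPM1. Signs turned for TAGLN (-0.20), MYL9 (-0.025) and LMOD1 (-0.15) among wounds named L, for ACTG2 (-0.10) and DES (-0.34) among wounds named R, for CNN1 under the replicate block (0.030) and among R wounds (0.14), and for TPM1 with quantile normalization (-0.11), with libraries scaled to the same sum (-0.067), among R wounds (-0.074) and without the 2 wounds apart (-0.053); the causes were not tested. Leaving out 1 wound at a time gave -0.16 to 0.15 for CNN1, -0.15 to 0.20 for TPM1 and -0.10 to 0.71 for DES.

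The 419 calls over all genes became 822 with library weights, 9 among L wounds, 1415 among R wounds, 212 without the 2 wounds apart and 209 to 482 without 1 wound. They were lowest without non-diabetic replicate 1 (209), non-diabetic replicate 3 (220), non-diabetic replicate 4 (255), non-diabetic replicate 2 (273) and diabetic replicate 3 (279). Voom on recovered reads called 408. The contractile list's 2 calls became 1 with a pseudocount of 0.1 or 1 FPKM, without a filter, with a filter at 1 FPKM, with the letter as covariate or without the 2 wounds apart, 0 among L wounds, 5 among R wounds and 0 to 2 without 1 wound. The marker lists' 7 calls became 0 among L wounds, 11 among R wounds, 4 without the 2 wounds apart and 3 to 7 without 1 wound.

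The replicate numbers did not pair the wounds: deviations of same-numbered wounds correlated at -0.267, 0.215, 0.0678 and -0.483. With the replicate block, 16 genes were called over all genes, 0 of the contractile list and 0 of the marker lists, in a fit whose difference rests on the numbers both groups share. Depth did not limit the members, at 294 or more reads each.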
